A study of Mus musculus with 10 samples.

Results

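The sterol regulatory element-binding protein (SREBP) pathway was examined through 8 genes in inguinal white fat: the 2 precursor genes Srebf1 and Srebf2, the escort gene Scap, the retention genes Insig1 and Insig2, the protease genes Mbtps1 and Mbtps2, and the sterol carrier gene Stard4. They were chosen by symbol, with earlier results of these data known, and all 8 were found among the 40501 gene identifiers of the count table. The mutant samples were 5 from Cre-positive PexRAP-AKO males (replicates 1, 2, 3, 5 and 6), in which PexRAP is deleted in adipose tissue. They were set against 5 from Cre-negative males (Control, replicates 2, 3, 5, 7 and 8). All animals ate chow. The labels state 8 weeks on this diet and also call the animals 8 weeks old, so how old they were when the tissue was taken is unclear. Neither the promoter that drives Cre nor the strain is named in the sources used here. PexRAP, encoded by Dhrs7b, is a reductase of the peroxisomal route to ether lipids, a class of phospholipids with an ether-linked chain.

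SREBPs are made as membrane proteins of the endoplasmic reticulum, bound to the escort protein SCAP. When sterols are plentiful, INSIG proteins hold SCAP in the endoplasmic reticulum. When sterols are scarce, COPII vesicles carry SCAP and SREBP to the Golgi, where site-1 protease and then site-2 protease cut SREBP and free a transcription factor. SREBP-2 mainly drives cholesterol synthesis and uptake genes, and SREBP-1 mainly fatty acid synthesis genes, which white fat expresses strongly. Insig1 and Stard4 are themselves SREBP targets, whereas Insig2 is not known as one, so a transcript survey of the pathway covers both its machinery and its output.

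Levels are given as CPM, counts scaled to a common library size with TMM, a correction for library composition. Log2 fold changes are PexRAP-AKO over Control. A gene was called when its edgeR quasi-likelihood test had a Benjamini-Hochberg adjusted p under 0.05 over all 14913 genes tested. The libraries held 11274865 to 19881168 counts. The member with the fewest reads, Stard4, had 166 to 225 counts per PexRAP-AKO library and 130 to 267 per Control library, and Insig1 had 7405 to 10452 per PexRAP-AKO library and 2984 to 9026 per Control library. Dhrs7b stood at 17.9 to 22.8 CPM in PexRAP-AKO libraries and at 61.2 to 95.8 CPM in Control libraries, a log2 fold change of -2.05 (SE 0.12, edgeR Benjamini-Hochberg adjusted p = 1.54e-05), in the direction its label gives, although the deleted exons are not given. White adipocyte markers (Adipoq, Plin1, Lep and others, 10 tested) summed to 33100 to 42400 CPM in PexRAP-AKO and 34000 to 44900 CPM in Control, as the tissue label has it. Of these markers, 8 had negative and 2 positive log2 fold changes, with a median of -0.10 and 0 called. Cfd, a large part of the sum, was lower in every PexRAP-AKO library than in any Control library (-0.47, edgeR adjusted p = 0.135). It was the 1 marker of the 10 without overlap, against 3.41% of all genes in either direction. The labels do not say outright that each sample is a separate animal, so p-values measure only the spread between these samples, which may be technical.

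Of the 8 genes, 1 was called: Insig1, which was 2.24-fold higher in PexRAP-AKO fat (95% interval 1.76 to 2.84). The other 7 were not called, and their log2 fold changes ran from -0.15 (Mbtps2) to 0.30 (Srebf1). The background was 0.101% of all genes called in either direction and 0.0939% called higher in PexRAP-AKO. At an unadjusted p under 0.05 there were 3 of the 8 genes (Insig1, Srebf1 and Mbtps2), against 15.5% of all genes. The median log2 fold change was 0.04 over the 8 genes and -0.000654 over all genes tested, and 5 of the 8 were positive against 49.8% of all genes. Insig1 alone had groups that did not overlap, against 3.41% of all genes in either direction and 2.08% higher in PexRAP-AKO.

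**Figure D1:**
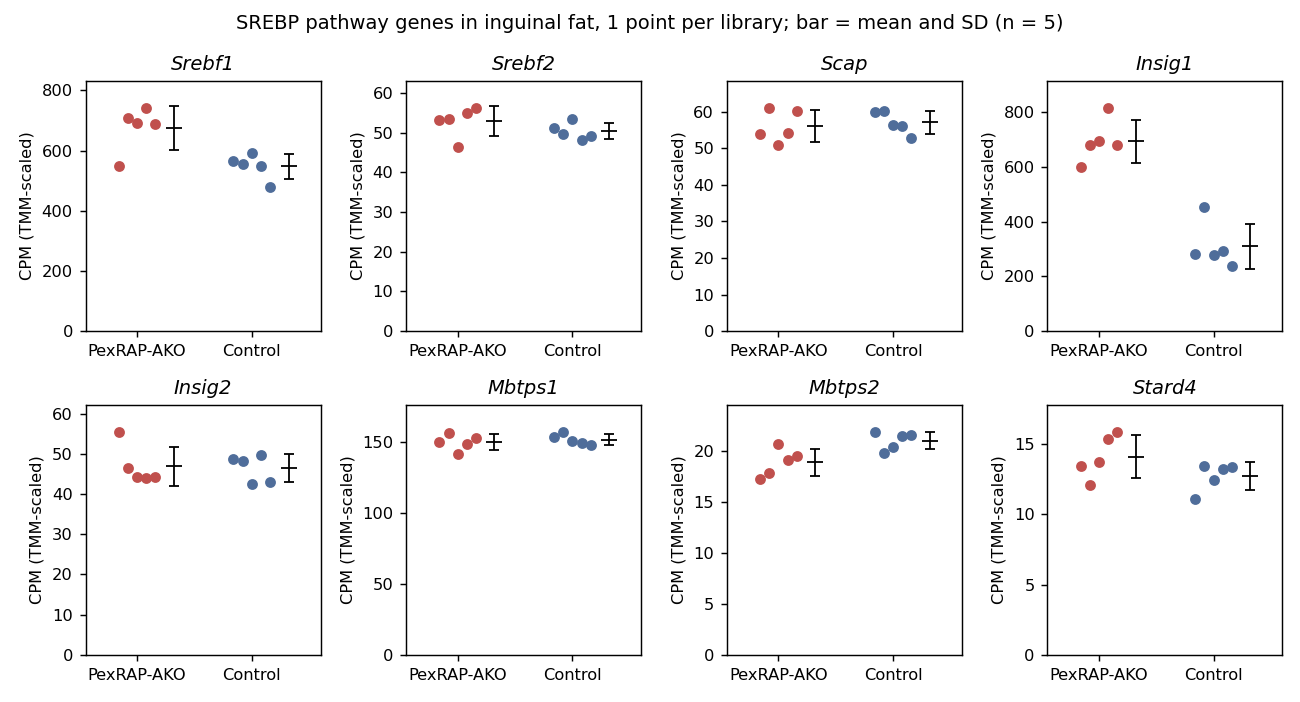
CPM of each of the 8 SREBP pathway genes in every library (vertical axes, starting at 0), with PexRAP-AKO libraries in red on the left and Control libraries in blue on the right, and black bars for the mean and SD of 5 libraries. Insig1 lies between 599 and 816 CPM in PexRAP-AKO libraries, above the highest Control library at 454 CPM, while the ranges of the other 7 genes overlap.

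Insig1 (ENSMUSG00000045294, chromosome 5, 28071363 to 28078662, plus strand, GRCm38) encodes the INSIG protein whose gene SREBP itself activates, a feedback that restrains further SREBP processing. In PexRAP-AKO replicates 1, 2, 3, 5 and 6 it stood at 599, 679.6, 694, 816 and 680.0 CPM. In Control replicates 2, 3, 5, 7 and 8 it stood at 282, 454, 280.0, 293 and 239.7 CPM. Every PexRAP-AKO library was above every Control library, and Control replicate 3 stood apart from the other Control libraries on the high side. The means were 694 ± 77.8 CPM in PexRAP-AKO and 309.9 ± 83.3 CPM in Control (SD, n = 5 each), a log2 fold change of 1.16 (SE 0.16, edgeR Benjamini-Hochberg adjusted p = 0.0173). By absolute size, 124 of the 14913 genes had a larger log2 fold change. Control replicate 3 also had the lowest Dhrs7b of its group, at 61.2 CPM. Without that library the log2 fold change of Insig1 was 1.34 (edgeR Benjamini-Hochberg adjusted p = 0.000532).

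The Insig1 call depended on single libraries and on marker scores. It was kept in 13 of 23 alternative settings, with log2 fold changes of 0.99 to 1.34 over all of them. Leaving out PexRAP-AKO replicate 2 or 5, or Control replicate 2, 5, 7 or 8, gave edgeR adjusted p-values of 0.0547 (without Control replicate 8) to 0.087 (without Control replicate 2), with log2 fold changes of 1.08 to 1.17. The call was also lost when the brown adipocyte marker score (the mean log2 CPM of the tested markers) entered the fit (0.99, edgeR adjusted p = 0.117), and with the T cell score (1.14, edgeR adjusted p = 0.0685).

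Brown adipocyte markers moved with the groups in part. Of 14 tested, 0 were called and 12 had positive fold changes, with a median log2 fold change of 0.80. Their summed level was 741 to 3080 CPM in PexRAP-AKO and 392 to 2410 CPM in Control. PexRAP-AKO replicate 1, which had the lowest Insig1 of its group, also had the lowest brown sum of its group, while Control replicate 5 had a brown sum of 2407 CPM beside an Insig1 level of 280.0 CPM. T cell markers summed to 163 CPM in PexRAP-AKO replicate 6, 19.3 to 33.7 CPM in the other PexRAP-AKO libraries and 15.3 to 28.7 CPM in Control, with 12 of 12 positive and 0 called. B cell markers summed to 148 CPM in PexRAP-AKO replicate 6 and 73.2 CPM in Control replicate 8, the highest of their groups, and without both libraries Insig1 was at 1.09 (edgeR adjusted p = 0.104). Endothelial markers summed to 658 to 956 CPM in PexRAP-AKO and 959 to 1180 CPM in Control, ranges that did not overlap, with 10 of 10 negative and 0 called. At an edgeR unadjusted p under 0.05 there were 5 of the 10, all lower, against 15.5% of all genes in either direction. Groups did not overlap for 2 of the 10 (Cdh5 and Robo4), both lower in PexRAP-AKO, against 3.41% of all genes in either direction. Skeletal muscle markers summed to 13.0 to 134 CPM in PexRAP-AKO and 18.3 to 1430 CPM in Control, with 13 of 13 negative and 0 called, and with their score as a covariate Insig1 kept its call at 1.05 (edgeR adjusted p = 0.0277). No listed marker was at 0 in all libraries, and the part of the endothelial markers in the result was not tested. In whole tissue, fewer cells of a type and less RNA per cell cannot be told apart.

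Insig2 (ENSMUSG00000003721, chromosome 1, 121304353 to 121332589, minus strand) encodes the second INSIG protein. It stood at 55.5, 46.4, 44.1, 43.9 and 44.3 CPM in PexRAP-AKO replicates 1, 2, 3, 5 and 6. It stood at 48.8, 48.3, 42.6, 49.7 and 43.1 CPM in Control replicates 2, 3, 5, 7 and 8. The groups overlapped, and PexRAP-AKO replicate 1 alone was above all Control libraries. The log2 fold change was 0.01 (SE 0.08, 95% interval -0.16 to 0.18, edgeR Benjamini-Hochberg adjusted p = 0.961), and its sign turned in 8 of 23 alternatives.

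The balance of the INSIG genes is best seen within each library, on the scale of CPM per kilobase of exon. The Insig1 to Insig2 ratio was 12.1, 16.5, 17.6, 20.9 and 17.2 in PexRAP-AKO replicates 1, 2, 3, 5 and 6. It was 6.50, 10.6, 7.38, 6.62 and 6.25 in Control replicates 2, 3, 5, 7 and 8. The lowest PexRAP-AKO ratio lay above the highest Control ratio. The mean was 16.9 ± 3.13 in PexRAP-AKO and 7.46 ± 1.78 in Control (SD, n = 5 each), so Insig1 was the more abundant INSIG transcript in every library. Against the escort gene, the Insig1 to Scap ratio was 30.0 ± 4.32 in PexRAP-AKO and 13.0 ± 2.95 in Control (SD, n = 5 each). Against Srebf2, the Insig1 ratio was 30.6 ± 3.84 in PexRAP-AKO and 14.3 ± 4.005 in Control. These ratios share the Insig1 value of each library, so they repeat its difference.

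**Figure D2:**
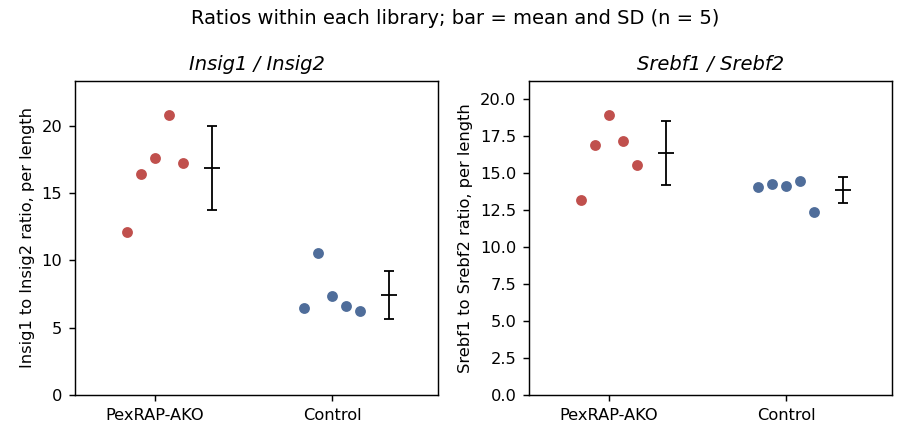
Ratios of CPM per kilobase within each library (vertical axes from 0), Insig1 to Insig2 on the left and Srebf1 to Srebf2 on the right, with PexRAP-AKO in red, Control in blue and black bars for the mean and SD of 5 libraries. The Insig1 to Insig2 ratios do not overlap (12.1 to 20.9 in PexRAP-AKO, 6.25 to 10.6 in Control), and the Srebf1 to Srebf2 ratios do (13.2 to 19.0 in PexRAP-AKO, 12.4 to 14.5 in Control).

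The promoter windows of both INSIG genes are shown because their transcripts differed in response. The sequences are from RefSeq (GRCm38.p6), 250 bases before to 50 after an annotated start, 5' to 3' on the gene's strand. Capitals mark matches, on either strand, to the CCAAT box (CCAAT), the GC box (GGGCGG), the E-box (CACGTG) or the sterol regulatory element core (TCACNCCAC, and the shorter TCACNCCA, which was added after the windows were seen and is contained in the longer one). Of 3 Insig2 windows, the one at its most downstream start is printed.
Insig1, chr5:28071162-28071461, plus strand: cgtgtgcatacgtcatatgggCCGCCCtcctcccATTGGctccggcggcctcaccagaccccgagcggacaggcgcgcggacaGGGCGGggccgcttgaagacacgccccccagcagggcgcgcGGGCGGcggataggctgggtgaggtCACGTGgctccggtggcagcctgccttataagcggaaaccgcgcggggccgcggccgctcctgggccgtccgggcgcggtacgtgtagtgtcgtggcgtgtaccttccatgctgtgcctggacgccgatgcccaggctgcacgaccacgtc
Insig2, chr1:121327629-121327928, minus strand: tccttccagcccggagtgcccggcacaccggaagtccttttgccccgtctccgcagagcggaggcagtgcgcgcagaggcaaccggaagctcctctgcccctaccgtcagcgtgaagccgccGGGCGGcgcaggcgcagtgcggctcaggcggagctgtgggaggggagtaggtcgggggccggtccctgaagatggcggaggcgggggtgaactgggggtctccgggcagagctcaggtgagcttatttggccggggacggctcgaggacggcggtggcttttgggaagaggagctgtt
The Insig1 window held 3 GC boxes, 1 CCAAT box and 1 E-box at position -101 from the start. The printed Insig2 window held 1 GC box, and of its other windows one held 1 GC box and one held 3 CCAAT boxes, so the comparison of the INSIG genes depends on which start is taken. Among all 32851 windows of the table, 35.7% held a GC box, 37.4% a CCAAT box and 7.15% an E-box. The longer sterol element core was in 0 of the 12 windows of 7 members and in 1.24% of all windows, which says only that these letters are not in these windows. The member left out of this search was Stard4, itself a known SREBP target, so the count does not cover it.

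Srebf1 (ENSMUSG00000020538, chromosome 11, 60199089 to 60222581, minus strand) encodes the SREBP-1 isoforms, which gene counts do not separate. It stood at 550.1, 707, 690.5, 742 and 687 CPM in PexRAP-AKO replicates 1, 2, 3, 5 and 6. It stood at 565, 557, 591, 548 and 478 CPM in Control replicates 2, 3, 5, 7 and 8. In PexRAP-AKO, 4 of 5 libraries were above every Control library, and replicate 1 lay among the Control values. The means were 675 ± 73.3 CPM in PexRAP-AKO and 548 ± 42.0 CPM in Control (SD, n = 5 each). The log2 fold change of 0.30 (SE 0.09, 95% interval 0.10 to 0.51) did not pass the test (edgeR unadjusted p = 0.00769, Benjamini-Hochberg adjusted p = 0.185). DESeq2 alone among the 23 alternatives called it (0.31, DESeq2 adjusted p = 0.0293), and it was 0.17 once the brown adipocyte score entered the fit (edgeR adjusted p = 0.65). Srebf1 shares 109 exon bases with Rai1 on the opposite strand. Rai1 had 7228 counts over all libraries against 86863 for Srebf1, and without a stated strand setting reads from the shared bases cannot be told apart.

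Srebf1 and the deleted gene lie on the same chromosome, with their starts 608 kb apart and 13 tested genes between them. Of 37 tested genes starting within 1 Mb of Dhrs7b, 0 were called, and 7 higher and 3 lower had an unadjusted p under 0.05 (27.0% of the 37, beside the 15.5% over all genes). The median log2 fold change of the 37 was 0.04, with a range from -0.40 to 0.38. Srebf1 ranked 3 of them by p. The others in the first 4 were Natd1 at 0.22 (edgeR adjusted p = 0.152), Epn2, an endocytic adaptor, at -0.40 (edgeR adjusted p = 0.177) and Rai1, a chromatin-associated regulator, at -0.23 (edgeR adjusted p = 0.185). Groups did not overlap for 3 of the 37 (8.11%, beside the 3.41% over all genes): Natd1, Epn2 and Med9, a Mediator subunit gene at 0.23 that was named after its values were seen.

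Srebf2 (ENSMUSG00000022463, chromosome 15, 82147181 to 82205379, plus strand) encodes SREBP-2 and carries the microRNA gene Mir33 in an intron, which had 1 count in all libraries together. It stood at 53.3, 53.3, 46.4, 55.0 and 56.2 CPM in PexRAP-AKO replicates 1, 2, 3, 5 and 6. It stood at 51.3, 49.6, 53.3, 48.15 and 49.25 CPM in Control replicates 2, 3, 5, 7 and 8. The groups overlapped: PexRAP-AKO replicate 3 was below every Control library and replicates 5 and 6 were above. The log2 fold change was 0.07 (SE 0.06, 95% interval -0.06 to 0.20, edgeR Benjamini-Hochberg adjusted p = 0.617). The Srebf1 to Srebf2 ratio per length was 16.4 ± 2.16 in PexRAP-AKO and 13.9 ± 0.85 in Control (SD, n = 5 each), and its ranges overlapped.

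For the precursor genes, 1 window each is printed because both genes are known as SREBP targets, with the same marks as above. Of 3 Srebf1 windows, the one at its most downstream start is printed.
Srebf1, chr11:60210422-60210721, minus strand: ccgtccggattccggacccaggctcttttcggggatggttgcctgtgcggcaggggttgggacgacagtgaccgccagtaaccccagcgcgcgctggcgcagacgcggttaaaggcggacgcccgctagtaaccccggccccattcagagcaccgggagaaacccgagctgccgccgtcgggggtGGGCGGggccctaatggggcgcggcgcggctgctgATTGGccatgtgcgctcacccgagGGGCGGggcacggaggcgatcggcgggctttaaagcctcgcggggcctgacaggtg
Srebf2, chr15:82147019-82147318, plus strand: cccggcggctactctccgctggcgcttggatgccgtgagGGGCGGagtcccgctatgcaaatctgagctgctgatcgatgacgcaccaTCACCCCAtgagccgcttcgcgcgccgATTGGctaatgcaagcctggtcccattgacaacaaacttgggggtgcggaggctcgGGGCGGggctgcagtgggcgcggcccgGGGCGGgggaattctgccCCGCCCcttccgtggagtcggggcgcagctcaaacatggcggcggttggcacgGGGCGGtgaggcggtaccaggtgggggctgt
The Srebf1 window held 2 GC boxes and 1 CCAAT box, at position -30. The Srebf2 window held 5 GC boxes, 1 CCAAT box and the shorter sterol element core as TCACCCCA at position -162, a match found in 4.36% of all windows. Beside these matches, Srebf1 had a log2 fold change of 0.30 and Srebf2 one of 0.07, neither called.

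Scap (ENSMUSG00000032485, chromosome 9, 110333288 to 110384950, plus strand) encodes the sterol-sensing escort. It stood at 53.9, 61.05, 50.8, 54.3 and 60.1 CPM in PexRAP-AKO replicates 1, 2, 3, 5 and 6. It stood at 59.8, 60.3, 56.3, 56.0 and 52.9 CPM in Control replicates 2, 3, 5, 7 and 8. The groups overlapped over most of their range, and the log2 fold change was -0.03 (SE 0.06, 95% interval -0.17 to 0.11, edgeR Benjamini-Hochberg adjusted p = 0.888). Its exons share 985 bases with an unnamed transcript on the opposite strand that had 120 counts against 8096 for Scap.

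Mbtps1 (ENSMUSG00000031835, chromosome 8, 119508156 to 119558735, minus strand) encodes site-1 protease, which makes the first cut. It ranged from 142 to 156 CPM in PexRAP-AKO (149.8, 156, 142, 149 and 153 CPM in replicates 1, 2, 3, 5 and 6). In Control it ranged from 148 to 157.5 CPM (153.5, 157.5, 151, 149 and 148 CPM in replicates 2, 3, 5, 7 and 8). The groups overlapped, and the spread was the smallest among the 8 genes, with a coefficient of variation of 3.67% in PexRAP-AKO and 2.57% in Control. The log2 fold change was -0.02 (SE 0.05, 95% interval -0.13 to 0.09, edgeR Benjamini-Hochberg adjusted p = 0.903).

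Mbtps2 (ENSMUSG00000046873, chromosome X, 157535371 to 157598715, minus strand) encodes site-2 protease, which makes the second cut inside the membrane. It stood at 17.2, 17.8, 20.6, 19.05 and 19.5 CPM in PexRAP-AKO replicates 1, 2, 3, 5 and 6. It stood at 21.9, 19.8, 20.3, 21.4 and 21.5 CPM in Control replicates 2, 3, 5, 7 and 8. In PexRAP-AKO, 4 of 5 libraries were below every Control library, and replicate 3 lay among them. The log2 fold change was -0.15 (SE 0.07, 95% interval -0.30 to -0.0026) and did not pass the test (edgeR unadjusted p = 0.0467, Benjamini-Hochberg adjusted p = 0.316). The intronless gene Yy2 shares 2867 exon bases with Mbtps2 on the same strand and had 0 counts in all libraries, so the table assigned it no reads. How reads on bases shared by both genes were counted is not stated. The 0 counts may therefore come from the overlap, and Mbtps2 may lack those reads too.

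Stard4 (ENSMUSG00000024378, chromosome 18, 33199355 to 33213862, minus strand) encodes a soluble sterol carrier whose gene responds to SREBP-2. It stood at 13.4, 12.1, 13.7, 15.4 and 15.9 CPM in PexRAP-AKO replicates 1, 2, 3, 5 and 6. It stood at 11.1, 13.4, 12.4, 13.3 and 13.3 CPM in Control replicates 2, 3, 5, 7 and 8. The groups overlapped, with PexRAP-AKO replicate 2 below 4 of the Control libraries. The log2 fold change was 0.15 (SE 0.09, 95% interval -0.06 to 0.35, edgeR Benjamini-Hochberg adjusted p = 0.481). Insig1 and Stard4 are both feedback targets, and the interval of Stard4 ended below that of Insig1 (0.82 to 1.51), although the difference between the genes was not itself tested.

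**Figure D3:**
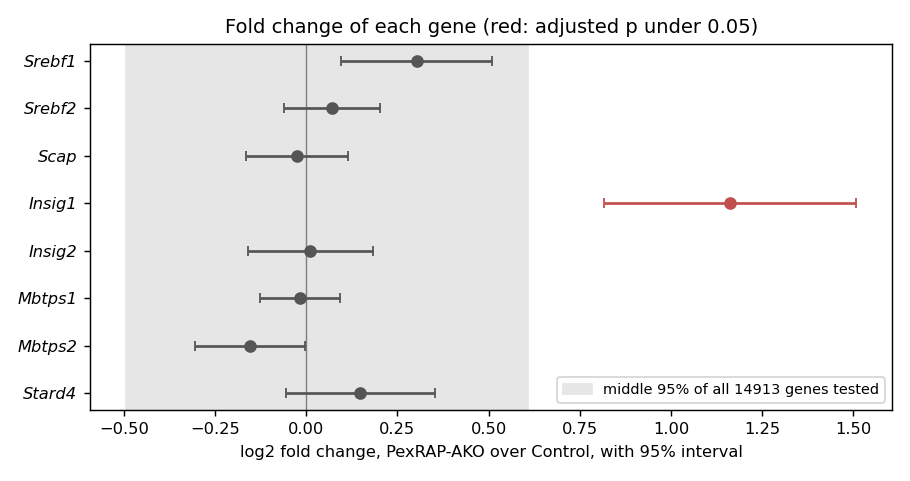
Log2 fold change, PexRAP-AKO over Control, of each gene (points) with its 95% interval (bars) on the horizontal axis, and grey for the middle 95% of all 14913 genes tested, from -0.49 to 0.61. Insig1, in red, is called and its interval of 0.82 to 1.51 lies outside the grey range, while the other 7 points lie inside it.

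Per kilobase of exon, the order of mean levels in PexRAP-AKO fat was Insig1 (224 CPM per kilobase), Srebf1 (119.9), Mbtps1 (14.2), Insig2 (13.5), Scap (7.53), Srebf2 (7.36), Stard4 (2.52) and Mbtps2 (1.86). In Control fat the order was Insig1 (100.2 CPM per kilobase), Srebf1 (97.2), Mbtps1 (14.4), Insig2 (13.4), Scap (7.67), Srebf2 (7.01), Stard4 (2.27) and Mbtps2 (2.08). Insig1 exceeded Srebf1 in 5 of 5 PexRAP-AKO libraries with no overlap of ranges, and in 1 of 5 Control libraries. Neighbours whose ranges overlapped in both groups were Mbtps1 and Insig2, and Scap and Srebf2. Stard4 and Mbtps2 overlapped in Control but not in PexRAP-AKO. The merged exon length of Mbtps2 includes the bases shared with Yy2, whose reads may not have been counted, so its level may be too low. The order depended on the length used. Divided by the longest transcript instead of merged exons, Mbtps2 (3.93 CPM per kilobase in PexRAP-AKO) came above Stard4 (2.77) in both groups. In Control, Srebf1 (127 ± 9.78 CPM per kilobase, SD, n = 5) then came above Insig1 (115 ± 30.9), and their ranges still overlapped. By that length Mbtps1 no longer overlapped Insig2, nor Scap Srebf2, in either group.

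The genes whose profile over the 10 libraries was nearest to Insig1 were Agpat2, Nsdhl, Lpcat3 and Cyp51. Likeness was the root mean square difference of log2 CPM after centring each gene on its own mean, over 13071 genes with at least 1 CPM on average. The differences were 0.22 for each of the 4, against a root mean square of 0.64 for Insig1 itself, and the points share libraries and their depth. Agpat2, an acyltransferase of triglyceride and phospholipid synthesis, averaged 1958 ± 314 CPM in PexRAP-AKO and 1016 ± 243 CPM in Control (SD, n = 5 each), and was not called (log2 fold change 0.95, edgeR adjusted p = 0.0657). Nsdhl, a sterol demethylation enzyme, was at 63.6 ± 12.6 CPM in PexRAP-AKO and 27.6 ± 7.06 CPM in Control (edgeR adjusted p = 0.051). Cyp51, another sterol demethylation enzyme, was at 63.2 ± 12.6 CPM in PexRAP-AKO and 30.3 ± 4.12 CPM in Control and was called, as was Lpcat3, described with the LXR targets. Within PexRAP-AKO, all of these genes had their lowest value in replicate 1, and within Control all had their highest in replicate 3. Insig1 had the same extremes, and the 4 genes were picked for likeness to it over these libraries. The shared extremes therefore follow in part from the choice and are no independent support.

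**Figure D4:**
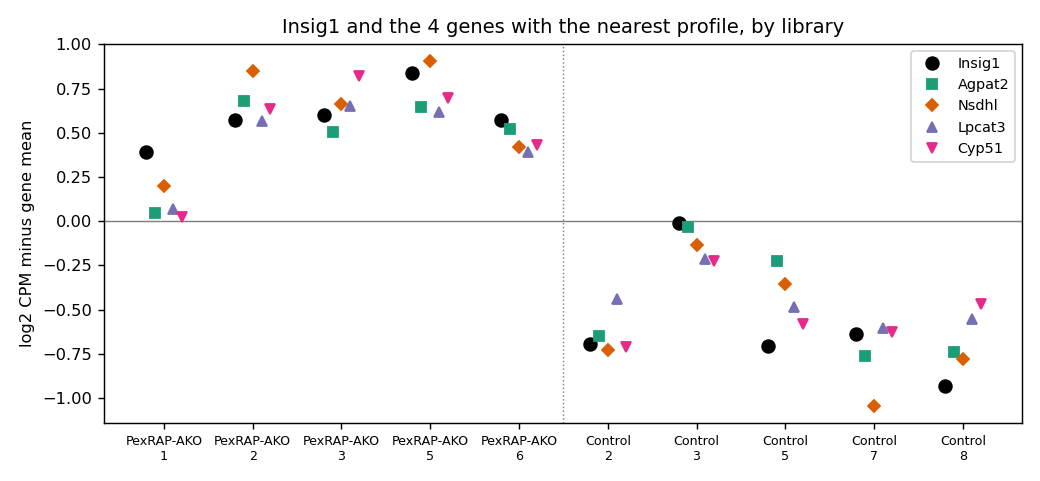
Log2 CPM minus each gene's own mean over 10 libraries (vertical axis) for Insig1 and the 4 genes with the nearest profile, with PexRAP-AKO libraries left of the dotted line and Control libraries right of it. The 5 genes have their lowest PexRAP-AKO values in replicate 1 and their highest Control values in replicate 3. The 4 genes were picked for likeness to Insig1 over these libraries, so this follows in part from the choice.

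For Srebf1, whose own root mean square was 0.20, the nearest were Mrs2 (0.06), Tbrg4 (0.06), Arpc5l (0.06) and Stk16 (0.07). None of these 4 was called, and their log2 fold changes were 0.24, 0.30, 0.26 and 0.22 in that order. For Stard4, with a root mean square of 0.14, the nearest genes Uspl1, Eml4, Ubxn2b and Sdad1 differed from it by 0.08 each and had log2 fold changes of 0.11, 0.13, 0.04 and 0.08, none called.

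Every sterol and fatty acid synthesis gene on the lists had a positive log2 fold change. The lists were chosen with earlier results of these data known, so their shared direction is a description and no independent support. Of 22 tested sterol synthesis and uptake genes, 3 were called higher (Lss, Cyp51 and Msmo1), against 0.0939% of all genes, and 0 lower. All 22 had positive log2 fold changes, against 49.8% of all genes, and the median was 0.71. At an edgeR unadjusted p under 0.05 there were 18 of the 22, all higher, against 15.5% of all genes in either direction. Groups did not overlap for 11 of the 22, all higher in PexRAP-AKO, against 2.08% of all genes. The calls were kept in 13 (Cyp51), 12 (Lss) and 9 (Msmo1) of 23 alternatives. Each of the 3 was lost without PexRAP-AKO replicate 2 or 5 or Control replicate 2, 5, 7 or 8 (edgeR adjusted p = 0.0622 to 0.12), once the brown adipocyte score (0.136 to 0.21) or the skeletal muscle score (0.06 to 0.0627) entered the fit, and with both PexRAP-AKO replicate 6 and Control replicate 8 left out (0.104 to 0.163). With the T cell score Cyp51 (0.0685) and Msmo1 (0.0874) were lost. Lss was also lost without PexRAP-AKO replicate 3, and Msmo1 without replicate 3 or 6 and with total counts as the scaling (0.0531). The largest log2 fold changes, Nsdhl (1.20) and Mvd (1.20), were not called. The summed level of the 22 genes was 1255, 1588, 1224, 1415 and 1323 CPM in PexRAP-AKO replicates 1, 2, 3, 5 and 6. It was 954, 1036, 795, 875 and 947 CPM in Control replicates 2, 3, 5, 7 and 8, so the groups did not overlap and Control replicate 3 was again the highest of its group. Mvd falls outside the rule for named genes and was picked with its value in view.

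Of 15 fatty acid synthesis and desaturation genes, 0 were called, against 0.101% of all genes. All 15 had positive log2 fold changes, against 49.8% of all genes, and the median was 0.77. At an edgeR unadjusted p under 0.05 there were 11 of the 15, all higher, against 15.5% of all genes in either direction. Groups did not overlap for 3 of the 15, all higher in PexRAP-AKO, against 2.08% of all genes. By unadjusted p the first were Scd1 (0.77), Scd2 (2.08), Fads2 (0.82) and Acss2 (1.63), desaturases and an acetyl-CoA synthetase, with edgeR adjusted p-values from 0.0733 to 0.107. Scd1 ranged from 67190 to 88740 CPM in PexRAP-AKO and from 38810 to 51810 CPM in Control, with no overlap. The 15 genes summed to 89100 to 118000 CPM in PexRAP-AKO and 49900 to 67300 CPM in Control, of which Scd1 was the largest part by its mean of 76439 CPM in PexRAP-AKO and 44942 CPM in Control. DESeq2 called all 4 of these first genes, which edgeR did not. Once the brown adipocyte score entered the fit, Scd1 was at 0.94 and was called (edgeR adjusted p = 0.0413). The other 3 were smaller in that fit and not called, with Acss2 at 1.08 (edgeR adjusted p = 0.396), Scd2 at 1.58 (0.396) and Fads2 at 0.65 (0.515).

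**Figure D5:**
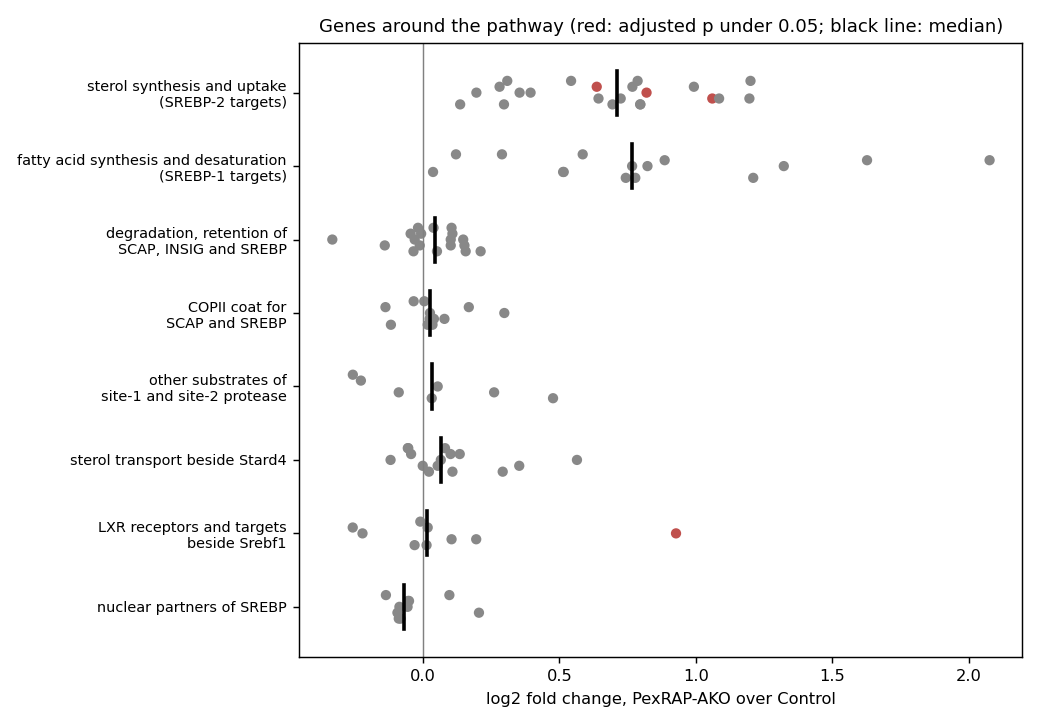
Log2 fold change, PexRAP-AKO over Control (horizontal axis), of each tested gene in 8 lists around the pathway, with 1 point per gene, red for an adjusted p under 0.05 in edgeR and a black line for the list's median. All points of the sterol list (median 0.71) and the fatty acid list (median 0.77) lie right of 0, and the medians of the other 6 lists lie between -0.07 and 0.07.

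Genes that act on the machinery itself were not called. Among 18 genes for degradation and retention of SCAP, INSIG and SREBP, 10 had positive and 8 negative log2 fold changes, with a median of 0.05. Ubxn8, which tethers the p97 ATPase to the endoplasmic reticulum, had the smallest p (log2 fold change 0.21, edgeR adjusted p = 0.18). Nploc4 (0.16) and Vcp (0.15), which belong to the p97 complex, and Erlin1 (-0.33), which retains SREBP, followed. Groups did not overlap for 1 of the 18 (Ubxn8), against 3.41% of all genes in either direction. The ubiquitin ligase genes Rnf139 and Rnf145 had log2 fold changes of 0.11 and 0.04. Among 12 COPII coat genes, 9 were positive and the median was 0.02. Sar1b, the GTPase that starts coat assembly, was at 49.1 ± 3.80 CPM in PexRAP-AKO and 39.9 ± 2.91 CPM in Control (SD, n = 5 each). Its log2 fold change was 0.30 (edgeR adjusted p = 0.12). Groups did not overlap for 1 of the 12 (Sar1b), against 3.41% of all genes in either direction, while Sec13 (0.17), Sec24b (-0.14) and Sec24d (-0.12) overlapped.

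The other lists held 1 call. Among 7 tested other substrates of the site-1 and site-2 proteases, 4 were positive, the median was 0.03 and none was called, with Gnptab, a lysosomal enzyme-tagging transferase, at 0.26 and the membrane-bound transcription factor genes Creb3l2 at -0.26, Creb3l3 at 0.48 and Atf6b at -0.09. Among 15 tested sterol transport genes besides Stard4, 10 were positive, the median was 0.07 and none was called. Npc2, a lysosomal cholesterol binder, was at 395 ± 33.9 CPM in PexRAP-AKO and 323 ± 19.2 CPM in Control (SD, n = 5 each). Its log2 fold change was 0.29 (edgeR adjusted p = 0.143). Groups did not overlap for 1 of the 15 (Npc2), against 3.41% of all genes in either direction. The sterol transfer genes Gramd1b (0.35), Gramd1c (0.56) and Osbpl2 (0.10) overlapped. Among 9 genes for LXR receptors and targets besides Srebf1, Lpcat3, a phospholipid acyltransferase, was called (0.93, edgeR Benjamini-Hochberg adjusted p = 0.00892, with 0.0545 without Control replicate 8 and 0.104 without PexRAP-AKO replicate 6 and Control replicate 8), 5 were positive and the median was 0.01. Nr1h3, which encodes LXR alpha, was at 0.20 (edgeR adjusted p = 0.18), and its groups did not overlap, nor did those of Lpcat3. These were 2 of the 9 genes, against 3.41% of all genes in either direction. Rxra, the partner of LXR alpha, was at -0.22 and Mlxipl, which encodes ChREBP, at -0.26. The LXR targets Abca1, Abcg1 and Mylip were at 0.01, 0.10 and -0.01, and the groups overlapped for these and for Rxra and Mlxipl. Among 10 nuclear partners of SREBP, 2 were positive, the median was -0.07 and none was called, with the NF-Y subunit Nfyc at 0.21, the transcription factors Usf2 at -0.14 and Sp1 at -0.09, and the coactivator Ep300 at -0.09. With total counts as the only scaling, which moved the median of all genes to -0.07, the medians of the 5 machinery and partner lists above 0 turned to values from -0.06 to -0.01. The genes Rnf139, Rnf145, Abca1, Abcg1 and Mylip were chosen for their roles and lie outside the rule for named genes.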

How the data were processed

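Raw read counts per gene from 10 inguinal fat libraries were deposited by the authors. Per the submitters' processing notes, STAR 2.0.4b, Subread with featureCounts and edgeR were used, while, in the sources used here, the build, annotation and strand setting are not given. The table's 40724 rows held 40501 identifiers, and 1 row was kept of each of the 117 identifiers repeated with identical counts. Coordinates and exon lengths came from GENCODE M21 (GRCm38), which held 99.6% of the identifiers.

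Counts were scaled by TMM and filtered with filterByExpr (minimum count 10, minimum total 15) in edgeR 4.0.16 under R 4.3.3, leaving 14913 genes. The main test was the robust quasi-likelihood F test with no covariate and Benjamini-Hochberg adjustment at 0.05. The standard error of a log2 fold change was its size over the root of F. A prior count of 2 entered log2 CPM. The test was tried on simulated data. Alternatives were other scalings, filters, DESeq2 1.42.0, limma 3.58.1 voom, marker scores, a replicate block and leaving out libraries. The block fit used only replicates 2, 3 and 5 of each group.

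The members and gene lists were chosen with earlier results of these data known. Named genes were the 8 members, Dhrs7b, the 4 genes of smallest p per list, the 4 genes most like Insig1, Srebf1 and Stard4, and the 4 neighbours of Dhrs7b of smallest p.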

Additional observations from a re-analysis of the deposited data

Results flagged for a closer look

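Among 16 groups of 5 libraries (8 genes, both genotypes), 3 had a library far from the rest, where chance gives 0.8. Srebf1 in PexRAP-AKO replicate 1 was low, at 9.10 log2 CPM. Srebf2 in PexRAP-AKO replicate 3 was low, at 5.54 log2 CPM. Insig2 in PexRAP-AKO replicate 1 was high, at 5.80 log2 CPM. Without PexRAP-AKO replicate 1, the log2 fold change was 0.37 for Srebf1 (edgeR adjusted p = 0.0853) and -0.06 for Insig2 (edgeR adjusted p = 0.682).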

How the results depend on the processing

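The 15 calls over all genes became 26 with no low-count filter (22 higher, 4 lower), 415 in DESeq2 with its own filter on 27784 genes, so that tool and filter changed together (305 higher, 110 lower, against 14 and 1 in edgeR), 107 in limma voom with sample weights (88 higher, 19 lower), 3 with the replicate block, 6 with the brown adipocyte score, 6 with the skeletal muscle score, 7 with the T cell score and 5 without PexRAP-AKO replicate 6 and Control replicate 8. Leaving out single libraries gave 3 (without Control replicate 8) to 58 (without PexRAP-AKO replicate 1), with 43 without Control replicate 3. Members called were 2 in DESeq2, 0 with the replicate block, the brown or T cell score or that pair left out, and 0 to 1 without single libraries. Insig1 was at 1.14 with the replicate block (edgeR adjusted p = 0.194), 0.99 with the brown score, 1.14 with the T cell score, 1.09 without that pair (adjusted p = 0.104) and 1.08 to 1.34 without single libraries. The block also ended the calls of Lss (edgeR adjusted p = 0.186), Msmo1 (0.181) and Lpcat3 (0.0611). The block fit kept only replicates 2, 3 and 5 of each group, so blocking and the loss of libraries changed together. Srebf1 was called at 0.31 in DESeq2. The cause of these changes was not tested.

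Signs turned for uncalled genes near 0. Srebf2 was at -0.0019 with total counts, a scaling that moved the median of all genes to -0.07, and -0.0041 with the block. Insig2 was at -0.003 with upper-quartile scaling, -0.0591 with total counts, -0.028 with sample weights, -0.0589 with the block and -0.0172 with the muscle score. Without single libraries, Insig2 ran from -0.0577 to 0.0358, Scap from -0.0582 to 0.0079, Mbtps1 from -0.0325 to 0.0029 and Ubxn2b from -0.0174 to 0.0689. Sec24d was at 0.0334 with the block and Ubxn2b at -0.0336 with total counts. With total counts, list medians were -0.03 for degradation and retention, -0.05 for COPII, -0.06 for LXR and -0.14 for nuclear partners. For the 45 other named genes, 965 of 1035 values kept direction and call, 38 lost a call, 29 gained one and 3 turned sign.

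Only replicate numbers 2, 3 and 5 occur in both groups. Correlations of deviations between same-numbered samples were -0.021, -0.0812 and 0.36, and 1 of the 3 matched its own number best, so numbers were not taken as pairs. With 5 libraries a group, the intervals limit what can be said of the 7 uncalled genes.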
